A study of Mus musculus with 64 samples.

Results

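RPB6 is the subunit of RNA polymerase II (Pol II) encoded by Polr2f, and the libraries described here came from mouse embryonic stem cells of the V6.5 line in which an auxin-inducible degron was placed on RPB6. The members were the 2 libraries of RPB6 degron cells after 1 h of 500 µM IAA and the 2 libraries of the same cells at 0 h, 4 of the 64 RNA-seq libraries of a study that put such a degron on each of the 12 Pol II subunits. IAA (indole-3-acetic acid, an auxin) bridges the tagged protein to OsTir1, an F-box protein of rice, so that the protein is ubiquitinated and destroyed. Per the labels' protocols, all groups had 12 h of doxycycline to induce OsTir1 (at 2 µg/ml, where the series text gives 1 µg/ml), grew with 3 µM CHIR99021, an inhibitor of GSK3, and 0.5 µM PD0325901, an inhibitor of the kinase MEK, and had Drosophila S2 cells added at 10% before RNA was extracted. The protocol text describes IAA for 12 h, and the times of 1 h and 0 h come from the sample labels. The question of the comparison was which mRNAs had changed their share of the RNA 1 h after RPB6 was targeted. Set beside it were RPB1 and RPB3 degron cells at 1 h and 0 h and RPB6 degron cells at 12 h and untreated, with 2 libraries a group. Whether a line was 1 clone, and whether the 2 libraries of each group were grown as separate cultures, is not stated in the labels, and p-values therefore measure the spread among these libraries, which may be technical.

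RPB6 is a small subunit that is built into Pol I, Pol II and Pol III alike, so it is shared by the enzymes that make ribosomal RNA, mRNA and tRNA. In yeast it helps the large subunits to assemble and keeps them stable. When transcription slows, transcripts with short half-lives lose their share of the RNA first, and stable transcripts then take a larger share of a library of fixed size. Sprouty and dual-specificity phosphatase mRNAs, immediate-early mRNAs and the primary transcripts of microRNAs are known as short-lived, and mRNAs of ribosomal proteins and of the respiratory chain as long-lived.

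Total counts were 10668066 and 8598431 in the libraries at 1 h, against 9563923 and 8824646 at 0 h. Levels are given in CPM, which are counts put on 1 library size by TMM scaling, and differences as log2 fold changes of 1 h over 0 h with the standard error of the fit. The sums of cell type markers that follow are instead CPM of total counts, without TMM scaling. All 8 embryonic stem cell markers, Nanog, Pou5f1, Sox2, Esrrb, Zfp42, Klf4, Tfcp2l1 and Dppa3, were present and summed to 3753 and 3538 CPM at 1 h, against 3636 and 3531 CPM at 0 h. The 8 embryonic fibroblast markers summed to 25.3 and 24.5 CPM at 1 h, against 20.7 and 22.2 CPM at 0 h, with Lum at 0 in all 4 libraries. The 8 primitive endoderm markers summed to 20.5 and 19.9 CPM at 1 h, against 23.9 and 19.4 CPM at 0 h. Replicate 1 at 1 h lay furthest from the 0 h libraries, with a standard deviation of log2 differences over 10899 genes of 0.295 and 0.298, against 0.225 and 0.228 for replicate 2 at 1 h. Replicates differed by 0.208 at 1 h and by 0.209 at 0 h on the same measure. The 4 RPB6 libraries stood apart from the 8 of the RPB1 and RPB3 lines along a first principal component that held 77.6% of the variance, so levels are set side by side between lines only as values. The 0 h libraries also stood apart from the untreated RPB6 libraries of the 12 h set, which were scaled in a set of their own. Snhg1 was at a mean of 488 CPM at 0 h and 100.4 CPM in the untreated cells, Txnip at 770.2 and 119 CPM, and Dusp6 at 92.3 and 8.43 CPM. A level of the 0 h and 1 h libraries is therefore not given here as a trait of the RPB6 line.

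Polr2f itself had 31.7 and 29.2 CPM at 1 h, against 27.8 and 27.3 CPM at 0 h, a log2 fold change of 0.15 ± 0.13 (SE; adjusted p = 0.606). Its mRNA is no check of the labels, since a degron removes the protein and not the message, and its annotated exons share 245 bases with 1700088E04Rik on the opposite strand. At 0 h the mean was 27.6 CPM in RPB6 cells, against 57.7 CPM in RPB1 cells and 83.3 CPM in RPB3 cells, and it was 60.1 CPM in the untreated RPB6 cells of the 12 h set. The gene lies at chr15:79141009-79151774 (plus strand, GRCm38).

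After 1 h of IAA, few mRNAs had moved past the test in RPB6 cells. Of 15658 genes tested, 241 were called (1.54%), of which 147 were higher (0.939%) and 94 lower (0.6%), with edgeR's quasi-likelihood test at an adjusted p under 0.05. Feedback inhibitors of FGF signalling and the primary transcript of the miR-17-92 microRNAs were among the lower genes, and mRNAs of ribosomal proteins, of the respiratory chain and of small polymerase subunits were among the higher ones. Protein-coding genes made up 137 of the 147 higher and 76 of the 94 lower genes, beside 13413 of the 15658 genes tested. Most called changes were small, with 25 of the called genes past 1 on the log2 scale. The median of all genes was at -0.003. TMM scaling holds that median near 0, so it does not show whether mRNA levels moved as a whole. The 2 libraries at 1 h did not overlap those at 0 h in any called gene, nor in 46.7% of all genes tested. The count rested on 3 of the 4 libraries, since 2 genes were called without replicate 1 of 1 h, 16 without replicate 1 of 0 h and 7 without replicate 2 of 0 h, while 412 were called without replicate 2 of 1 h. With libraries scaled to their mitochondrial mRNAs, which moved the median of all genes to 0.120, Spry4 was the 1 gene called. Counts give shares of a library, and fewer cells of a type and less RNA per cell cannot be told apart.

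The lower genes began with the feedback inhibitors that the FGF-ERK pathway induces against itself. Spry4, a Sprouty protein that blocks signalling from FGF receptors to Ras, had 20.4 and 19.3 CPM at 1 h, against 52.03 and 50.8 CPM at 0 h. Its log2 fold change was -1.37 ± 0.12 (SE; adjusted p = 1.01e-05), and it was called under all 13 other settings run. Dusp6, the phosphatase that inactivates ERK, had 59.0 and 67.3 CPM at 1 h, against 90.9 and 93.7 CPM at 0 h, a log2 fold change of -0.55 ± 0.09 (SE; adjusted p = 0.00628). Both libraries at 1 h lay below both at 0 h for each of these genes. Spry2, a second Sprouty gene, had 94.7 and 101 CPM at 1 h, against 136 and 146 CPM at 0 h, a log2 fold change of -0.53 ± 0.10 (SE; adjusted p = 0.0119). These 3 were the called members of the 12 FGF-ERK feedback genes, all 3 lower, and the median of the 12 was -0.309. The share called lower over all genes tested was 0.6%. Spry1, at 11.99 CPM at 1 h and 15.4 CPM at 0 h (log2 fold change -0.36, adjusted p = 0.245), and Spred1, which binds Ras regulators and had a log2 fold change of -0.22 (adjusted p = 0.252), did not pass the test. Spry4 remained the called member when either 0 h library or replicate 1 of 1 h was left out, so the count of 3 became 1. Spry4 was at a mean of 51.4 CPM in the RPB6 libraries at 0 h, against 18.4 CPM in RPB1 cells, 22.9 CPM in RPB3 cells and 11.6 CPM in the untreated RPB6 cells of the 12 h set, and the labels give the same MEK inhibitor for all.

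Immediate-early genes, which growth signals induce without new protein synthesis, held 2 called members of 30, both lower, with a list median of -0.108. The share called lower over all genes tested was 0.6%. Egr1, a zinc finger transcription factor, had 1.20 and 2.53 CPM at 1 h, against 5.18 and 6.42 CPM at 0 h, a log2 fold change of -1.67 ± 0.33 (SE; adjusted p = 0.0184). Ier2, a short nuclear protein of the same response, had 136 and 135 CPM at 1 h, against 175 and 174 CPM at 0 h, a log2 fold change of -0.37 ± 0.07 (SE; adjusted p = 0.0234). The groups did not overlap for either gene, and Egr1 was near the bottom of the range of levels. Fos, a subunit of AP-1, had 4.06 and 4.48 CPM at 1 h, against 5.70 and 5.98 CPM at 0 h, and its log2 fold change of -0.45 did not pass the test (adjusted p = 0.339). Dusp1, a phosphatase of JNK and p38, had a log2 fold change of -0.31 (adjusted p = 0.107).

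**Figure D1:**
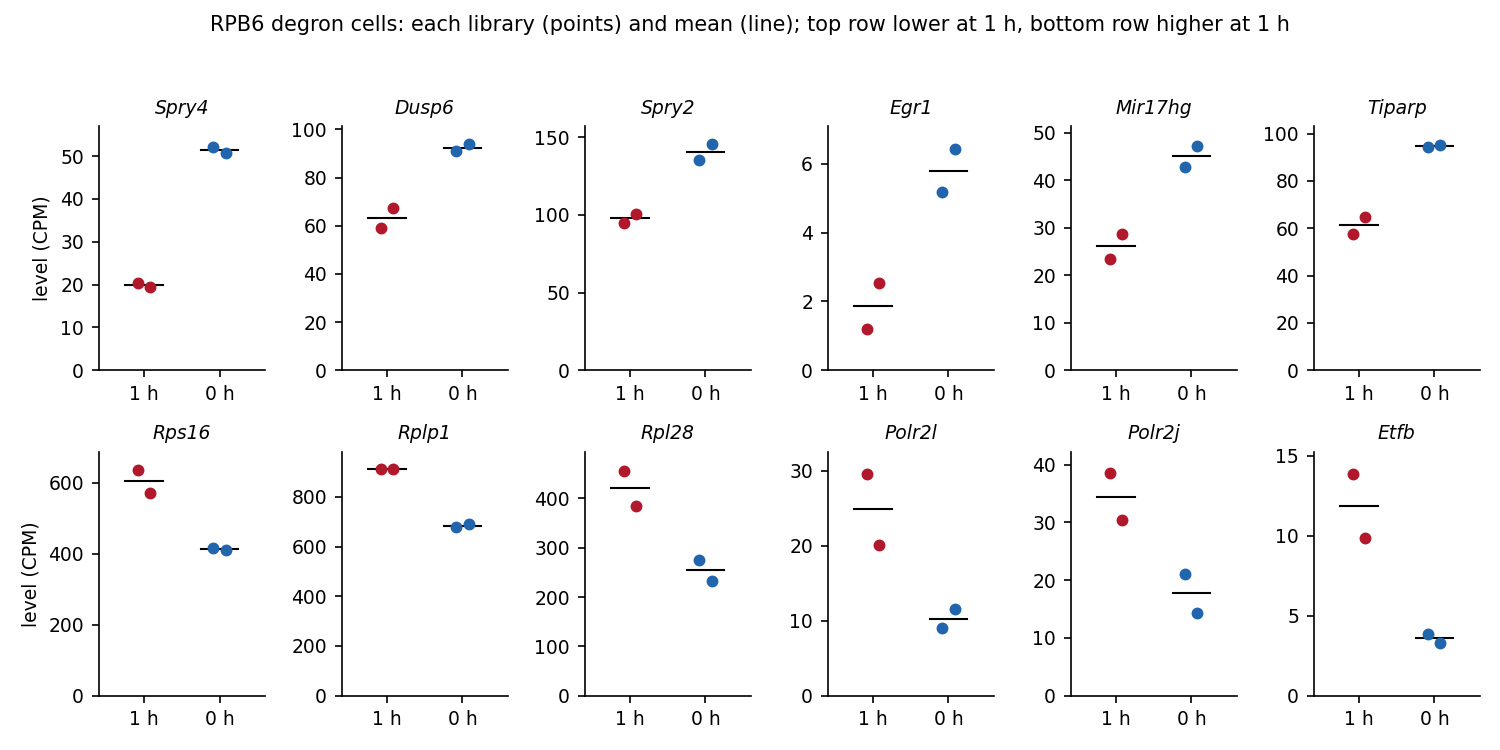
Levels (CPM, each axis from 0) of 12 called genes in RPB6 degron cells at 1 h (red) and 0 h (blue), with a point per library and a line at the mean of 2. In the upper row both 1 h points lie below both 0 h points, as for Dusp6 at 59.0 and 67.3 against 90.9 and 93.7 CPM, and in the lower row above them.

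A few primary transcripts of microRNAs were among the lower genes. MicroRNAs are cut from such transcripts, and the seed, bases 2 to 8 of the mature strand, pairs with target mRNAs. Mir17hg (chr14:115042879-115046727, plus strand, GRCm38), the host of the miR-17-92 cluster that promotes growth, had 23.4 and 28.7 CPM at 1 h, against 42.8 and 47.3 CPM at 0 h, a log2 fold change of -0.79 ± 0.12 (SE; adjusted p = 0.00565). Dleu2 (chr14:61602839-61682373, minus strand), a long noncoding RNA that hosts miR-15a and miR-16-1, microRNAs that restrain the cell cycle, had 29.5 and 27.8 CPM at 1 h, against 48.0 and 44.7 CPM at 0 h, a log2 fold change of -0.69 ± 0.11 (SE; adjusted p = 0.00622). Mir92-2, an annotated hairpin on the X chromosome that encodes the same mature miR-92a, had 0.277 and 0.115 CPM at 1 h, against 1.35 and 1.77 CPM at 0 h (adjusted p = 0.0258). For all 3 the libraries at 1 h lay below those at 0 h. The mature strands, from RefSeq on GRCm38.p6 with the seed in capitals, are shown because they are what the lowered transcripts carry, and mature microRNAs were not measured. The first 6 come from Mir17hg, in which miR-17 and miR-20a share a seed, as do miR-19a and miR-19b, and the last 2 lie in Dleu2 and share theirs.
mmu-miR-17-5p: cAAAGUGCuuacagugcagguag
mmu-miR-20a-5p: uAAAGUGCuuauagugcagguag
mmu-miR-18a-5p: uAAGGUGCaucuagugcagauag
mmu-miR-19a-3p: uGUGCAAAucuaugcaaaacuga
mmu-miR-19b-3p: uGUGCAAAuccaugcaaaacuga
mmu-miR-92a-3p: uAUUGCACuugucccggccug
mmu-miR-15a-5p: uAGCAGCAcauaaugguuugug
mmu-miR-16-5p: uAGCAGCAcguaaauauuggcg

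Counts given to Nlrp12, an inflammasome gene (chr7:3218784-3249740, minus strand), fell as well, to 7.29 and 7.70 CPM at 1 h, against 18.1 and 13.5 CPM at 0 h, a log2 fold change of -1.08 ± 0.18 (SE; adjusted p = 0.00628). Its annotated span holds the miR-290 cluster, microRNAs abundant in mouse embryonic stem cells, with exons that overlap the hairpins of miR-291a, miR-292, miR-293, miR-294 and miR-295 on the opposite strand. No source used here gives the strand setting of the counting, so reads of Nlrp12 and of the miR-290 primary transcript cannot be told apart. The mature strands from that cluster are shown because 3 of them share a seed that overlaps the seed of miR-17 by 6 bases, AAGUGC.
mmu-miR-291a-3p: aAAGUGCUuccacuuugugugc
mmu-miR-294-3p: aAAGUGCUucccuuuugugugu
mmu-miR-295-3p: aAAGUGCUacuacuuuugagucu
mmu-miR-293-3p: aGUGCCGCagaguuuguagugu
Genes that hold an annotated microRNA stood near the background as a class, with 5 higher and 8 lower of 720 tested (0.69% and 1.11%), beside 0.939% and 0.6% of all genes.

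Most of the lower mRNAs held AU-rich letters in their 3′ UTRs, in which the pentamer ATTTA and the longer TTATTTATT (which contains it) are known binding letters of decay factors such as tristetraprolin. On the sense strand of the annotated 3′ UTR, ATTTA occurred in 63 of 76 lower genes with a 3′ UTR (82.9%) and in 52 of 137 higher genes (38.0%), beside 9068 of 13379 genes tested (67.8%). The lower genes also had longer 3′ UTRs, with a median of 1372 bases against 396 in the higher genes and 1103 in all. Within 3′ UTRs of over 1000 and up to 3000 bases, the median density of ATTTA was 3.07 per kb in 29 lower genes and 0.902 per kb in 21 higher genes, beside 1.47 per kb in 5096 genes. TTATTTATT occurred in 7 of those 29 lower genes (24.1%) and in 3 of those 21 higher genes (14.3%), beside 9.42% of all. The longest transcripts had a median GC content of 41.3% in the lower genes and 54.9% in the higher genes, beside 49.8% in all. Transcripts poor in GC hold more A and T, and the part of base composition in these counts was not tested. These are descriptions of letters, not of sites in use.

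The sites below are from GRCm38, 5′ to 3′ on the transcribed strand with TTATTTATT in capitals, and show that letters of this kind stood in lower mRNAs and also in a higher one. Tiparp, an ADP-ribosyltransferase and target of the aryl hydrocarbon receptor, had 57.5 and 65.0 CPM at 1 h, against 94.2 and 95.3 CPM at 0 h, a log2 fold change of -0.63 ± 0.10 (SE; adjusted p = 0.00596), and its site is chr3:65554880-65554909 (plus strand). Zfp280b, a zinc finger gene, had 77.4 and 83.3 CPM at 1 h, against 110.0 and 120.4 CPM at 0 h (log2 fold change -0.52), and its site is chr10:76042971-76043000 (plus strand). Mat2a, which makes S-adenosylmethionine, had 311 and 336 CPM at 1 h, against 445 and 400.5 CPM at 0 h (log2 fold change -0.39), and its site is chr6:72433187-72433216 (minus strand). All 3 genes were lower in both libraries at 1 h than in either at 0 h. Zfp941, at 16.5 and 17.2 against 27.9 and 28.0 CPM (log2 fold change -0.73), held 12 copies of ATTTA and 11 of TTATTTATT, which overlap each other, around chr7:140810254-140810283 (minus strand). Cycs, which encodes cytochrome c, was higher, at 118 and 102 against 78.0 and 79.5 CPM (log2 fold change 0.49), with its site at chr6:50565207-50565236 (minus strand).
Tiparp: ttccacacaaTTATTTATTttgccctagtt
Zfp280b: tttttaaatcTTATTTATTattgtgtgtat
Mat2a: ttctaattgcTTATTTATTgtattctgggg
Zfp941: atttatttatTTATTTATTtatttatttat
Cycs: ttccactgccTTATTTATTacaaaacaaat

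Zinc finger genes with numbered Zfp symbols were found among the lower genes. Of 365 such protein-coding genes tested, 14 were lower and 1 higher, beside 0.6% and 0.939% of all genes. Their median log2 fold change was -0.224, beside -0.003 for all genes. This family was chosen after its values were seen. With the length and GC trends of each library removed, 6 of the 14 were still called, and Zfp759 and Zfp800 were not. Zfp759 had 11.1 and 9.77 CPM at 1 h, against 17.4 and 16.8 CPM at 0 h, a log2 fold change of -0.71 ± 0.16 (SE; adjusted p = 0.0360). Zfp800, a regulator of pancreas development, had 8.03 and 11.2 CPM at 1 h, against 13.6 and 17.7 CPM at 0 h (log2 fold change -0.72). Zfp444 was the member called higher, at 14.01 CPM at 1 h and 8.94 CPM at 0 h (log2 fold change 0.65). RPB1 cells had 193 of the same 365 genes lower and 8 higher at 1 h, with a median of -0.48. In that line 13.9% of all genes were lower and 11% higher. RPB3 cells had 2 lower, with a median of -0.038, beside 0.351% of all genes lower.

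Other lower genes came from several pathways. Lefty2, an extracellular inhibitor of Nodal, had 17.3 and 16.6 CPM at 1 h, against 22.3 and 34.4 CPM at 0 h, a log2 fold change of -0.74 ± 0.15 (SE; adjusted p = 0.0258), and was the called member of 7 Nodal-activin targets. Hspa8, the constitutive Hsc70 chaperone, had 644 and 644 CPM at 1 h, against 782 and 821 CPM at 0 h (log2 fold change -0.32) and was the called member of 17 heat shock and chaperone genes. Tug1, a nuclear long noncoding RNA, had 169 and 177 CPM at 1 h, against 232 and 224 CPM at 0 h (log2 fold change -0.40) and was the called member of 11 nuclear long noncoding RNAs. Each of these 3 was lower in both libraries at 1 h. Cnot6, a deadenylase of the CCR4-NOT complex, had 169.7 and 188 CPM at 1 h, against 242 and 223 CPM at 0 h (log2 fold change -0.38) and was the called member of 27 genes of the mRNA decay machinery. The share called lower over all genes tested was 0.6%. Stress and surface proteins were found as well. Dnajb9, a chaperone of the endoplasmic reticulum, had 15.8 and 17.9 CPM at 1 h, against 29.2 and 26.4 CPM at 0 h (log2 fold change -0.73). Has3, which makes hyaluronan, had 6.92 and 5.75 CPM at 1 h, against 12.02 and 10.4 CPM at 0 h (log2 fold change -0.81). All of these, too, were lower in both libraries at 1 h than in either at 0 h. Sycp1, a protein of the meiotic synaptonemal complex, had 25.9 and 29.9 against 45.5 and 46.4 CPM, and Plppr3, a neuronal phospholipid phosphatase-related protein, had 4.34 and 4.48 against 7.57 and 7.75 CPM, at 1 h against 0 h. Eif4a2, an RNA helicase of translation initiation, had 294 and 327 CPM at 1 h, against 482 and 459.6 CPM at 0 h, a log2 fold change of -0.60 ± 0.08 (SE; adjusted p = 0.00323), and its exons overlap those of several annotated snoRNAs on the same strand.

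The higher genes were led in number by cytosolic ribosomal proteins. Of 78 tested, 21 were higher and 1 lower, 71 had a positive log2 fold change and the median was 0.227, beside -0.003 for all genes. Over all genes tested, 0.939% were higher and 0.6% lower. Rps16, a protein of the small subunit, had 637 and 571 CPM at 1 h, against 417 and 412 CPM at 0 h, a log2 fold change of 0.54 ± 0.08 (SE; adjusted p = 0.00545). Rplp1, of the stalk of the large subunit, had 914 and 911 CPM at 1 h, against 679 and 691 CPM at 0 h, a log2 fold change of 0.41 ± 0.06 (SE; adjusted p = 0.00565). Rpl28, of the large subunit, had 455 and 386 CPM at 1 h, against 276 and 232 CPM at 0 h, a log2 fold change of 0.73 ± 0.12 (SE; adjusted p = 0.00628). All 3 were higher in both libraries at 1 h. The calls among the 21 ran from 0.28 for Rps12 to 0.73 for Rpl28. Ribosomal protein mRNAs held 4.82% and 4.60% of the counts at 1 h, against 3.95% and 4.20% at 0 h, so replicate 1 at 1 h and replicate 1 at 0 h lay furthest apart. The count of 21 was 0 without replicate 1 of 1 h, 2 without replicate 1 of 0 h and 0 without replicate 2 of 0 h, and 22 without replicate 2 of 1 h.

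Rps10 was the ribosomal protein gene called lower, with 4.80 and 4.83 CPM at 1 h, against 10.2 and 9.19 CPM at 0 h, a log2 fold change of -1.01 ± 0.20 (SE; adjusted p = 0.0232). Its level was far below that of the other members named, and its annotated exons share 475 of 2311 bases with the readthrough gene RPS10-NUDT3 on the same strand, so the counts of these genes are uncertain.

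Ribosomal protein mRNAs are known for starting with an unbroken stretch of pyrimidines, the 5′ TOP motif, through which translation is controlled by mTOR. The 50 bases around the RefSeq start (30 before it and 20 from it on, GRCm38.p6, transcribed strand) are shown for 4 higher genes and for Rps10, with the run of C and T that covers the start in capitals. The higher genes are Rpl28 at chr7:4792935-4792984 (plus strand), Rps9 at chr7:3704011-3704060 (plus strand; log2 fold change 0.44), Rpl38 at chr11:114668550-114668599 (plus strand; 0.61) and Rpl7a at chr2:26910777-26910826 (plus strand; 0.42), and Rps10 is at chr17:27635225-27635274 (minus strand).
Rpl28: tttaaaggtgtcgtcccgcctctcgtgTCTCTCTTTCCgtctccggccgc
Rps9: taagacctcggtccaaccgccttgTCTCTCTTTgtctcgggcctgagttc
Rpl38: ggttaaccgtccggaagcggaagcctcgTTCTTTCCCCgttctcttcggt
Rpl7a: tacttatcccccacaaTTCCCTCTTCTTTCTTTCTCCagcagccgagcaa
Rps10: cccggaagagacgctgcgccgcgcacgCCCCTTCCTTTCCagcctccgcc
A run of at least 7 C or T over the start, on the transcribed strand, was present in 5 of 15 higher ribosomal protein genes with a promoter entry (33.3%) and in 20 of 57 ribosomal protein genes tested (35.1%), beside 6.57% of 11093 genes tested. Over all calls it was present in 14 of 102 higher genes (13.7%) and in 3 of 66 lower genes (4.55%). The run was thus about as frequent in the ribosomal protein genes called higher as in all ribosomal protein genes tested. For genes with more than 1 RefSeq start, the start with the longest run was used, for the counts and for the bases shown. The run can include bases before the start, so it is not the 5′ TOP motif of the mRNA itself.

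Nuclear genes of the respiratory chain stood next to the ribosomal proteins. Of 75 genes with Nduf, Cox, Uqcr or Atp5 symbols, 9 were higher and 0 lower, with a median of 0.288. The shares over all genes tested were 0.939% higher and 0.6% lower. This family, too, was chosen after its values were seen. Atp5k, a subunit of ATP synthase, had 35.9 and 37.6 CPM at 1 h, against 18.04 and 8.85 CPM at 0 h, a log2 fold change of 1.44 ± 0.31 (SE; adjusted p = 0.0321). Ndufa12, a subunit of complex I, had 61.2 and 48.6 CPM at 1 h, against 34.8 and 28.6 CPM at 0 h (log2 fold change 0.80). Cox6b1, of complex IV, had 84.1 and 82.7 CPM at 1 h, against 64.7 and 51.8 CPM at 0 h (log2 fold change 0.52). The groups did not overlap for any of the 3. Etfb, of the flavoprotein that feeds electrons from fatty acid oxidation to ubiquinone, had the highest fold change among genes of at least 5 CPM, with 13.8 and 9.89 CPM at 1 h, against 3.83 and 3.32 CPM at 0 h and a log2 fold change of 1.74 ± 0.28 (SE; adjusted p = 0.00622), and 617 of its 1164 exonic bases are shared with Gm45233 on the same strand. The 12 mRNAs of the mitochondrial genome, which another polymerase transcribes, all had negative log2 fold changes under TMM scaling, with a median of -0.214, and edgeR called none of them, with 4 at an unadjusted p under 0.05 and 1 called by DESeq2. Mitochondrial mt-Nd2, of complex I, had 700.3 and 777 CPM at 1 h, against 882 and 976 CPM at 0 h (log2 fold change -0.33, adjusted p = 0.0749).

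Polr2l, Polr2j and Polr2e, small subunits of the polymerases themselves, were higher. Polr2l, which encodes RPB10 and is shared by the 3 polymerases, had 29.6 and 20.1 CPM at 1 h, against 9.02 and 11.5 CPM at 0 h, a log2 fold change of 1.29 ± 0.25 (SE; adjusted p = 0.0168). Polr2j, which encodes RPB11 of Pol II, had 38.6 and 30.4 CPM at 1 h, against 21.1 and 14.3 CPM at 0 h, a log2 fold change of 0.96 ± 0.15 (SE; adjusted p = 0.00622). Polr2e, which encodes the shared subunit RPB5, had 169 and 142 CPM at 1 h, against 114 and 117 CPM at 0 h, a log2 fold change of 0.43 ± 0.10 (SE; adjusted p = 0.0387). All 3 were higher in both libraries at 1 h than at 0 h. They were the called members of 5 shared subunits (2 higher) and 8 Pol II-specific ones (1 higher), and the large subunits Polr2a and Polr2b had log2 fold changes of -0.07 and 0.02 that did not pass the test. The share called higher over all genes tested was 0.939%. Of 19 subunits of Pol I and Pol III, edgeR and DESeq2 called none, with 2 at an unadjusted p under 0.05.

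The remaining higher genes included small proteins of the spliceosome and chaperones. Among 28 genes with Snrp, Sf3a or Sf3b symbols, a family chosen after its values were seen, 5 were higher and 1 lower, with a median of 0.206. Over all genes tested, 0.939% were higher and 0.6% lower. With the length and GC trends of each library removed, 3 of the 5 were still called. Snrnp40, Sf3a2 and the lower gene Snrnp48 were then not called. Snrpd2, of the ring of Sm proteins, had 126 and 113 CPM at 1 h, against 69.5 and 61.0 CPM at 0 h, a log2 fold change of 0.87 ± 0.13 (SE; adjusted p = 0.00556). Pfdn6, of the prefoldin chaperone, had 58.4 and 32.8 CPM at 1 h, against 20.4 and 19.6 CPM at 0 h (log2 fold change 1.20). Edf1, a bridging factor of transcription, had 107 and 76.9 CPM at 1 h, against 52.7 and 40.8 CPM at 0 h (log2 fold change 0.98). For each of these the libraries at 1 h lay above those at 0 h. H1fx, a linker histone, had 74.2 and 64.6 CPM at 1 h, against 39.3 and 32.6 CPM at 0 h, a log2 fold change of 0.95 ± 0.14 (SE; adjusted p = 0.00548). Pfdn6, Edf1 and H1fx all stood higher in replicate 1 at 1 h than in replicate 2. Palm3, a paralemmin, had 43.6 and 37.1 CPM at 1 h, against 21.1 and 19.9 CPM at 0 h (log2 fold change 0.98), and Rpl22l1, a paralog of a ribosomal protein, had 85.9 and 59.1 against 41.6 and 32.6 CPM at 1 h against 0 h. Mapkapk5, a kinase downstream of p38, had 13.6 and 7.82 against 5.18 and 4.32 CPM (log2 fold change 1.19), and 1805 of its 3195 exonic bases are shared with Adam1a on the same strand. Nucleolar proteins moved both ways. Ncl, the abundant nucleolar protein nucleolin, had 2977 and 2593 CPM at 1 h, against 2267 and 2223 CPM at 0 h (log2 fold change 0.31), and Gnl3, nucleostemin, was lower at 257 and 293 against 377 and 331 CPM (log2 fold change -0.37); they were the called members of 35 genes of ribosome biogenesis, whose median was 0.046. Unc93b1, which carries Toll-like receptors to endosomes, had 8.31 and 9.08 against 5.18 and 4.09 CPM, and Ccdc12, a spliceosome component, had 27.6 and 19.3 against 13.2 and 10.96 CPM.

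Higher and lower genes differed in the length and base composition of their transcripts. The longest annotated transcript had a median of 1649 bases in the higher genes and 3574 bases in the lower genes, beside 3097 bases in all genes tested. Its GC content had a median of 54.9% in the higher genes and 41.3% in the lower genes, beside 49.8% in all. Of 522 protein-coding genes with transcripts of at most 1000 bases, 35 were higher (6.70%), and of 1941 with transcripts over 6000 bases 2 were (0.103%). Of 1546 genes with a GC content of at most 42%, 43 were lower (2.78%), and of 1452 over 58% there were 3 (0.207%). The libraries as a whole moved along the same axis, with coding genes of transcripts under 1 kb holding 3.35% and 3.13% of counts at 1 h, against 2.70% and 2.83% at 0 h, and their part in the calls was not tested apart from the following. With the trends on length and GC removed from each library, a step added after seeing the data, 211 genes were called, of which 141 were among the 241, and Spry4, Dusp6, Rps16 and Etfb were still called. Dleu2, Rplp1, H1fx, Tug1, Cnot6, Taf1d, Has3, Sycp1, Unc93b1, Zfp759 and Zfp800 were then no longer called. Ribosomal proteins then had 24 higher and 1 lower, and of the called respiratory chain genes 8 of 9 were still called.

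**Figure D2:**
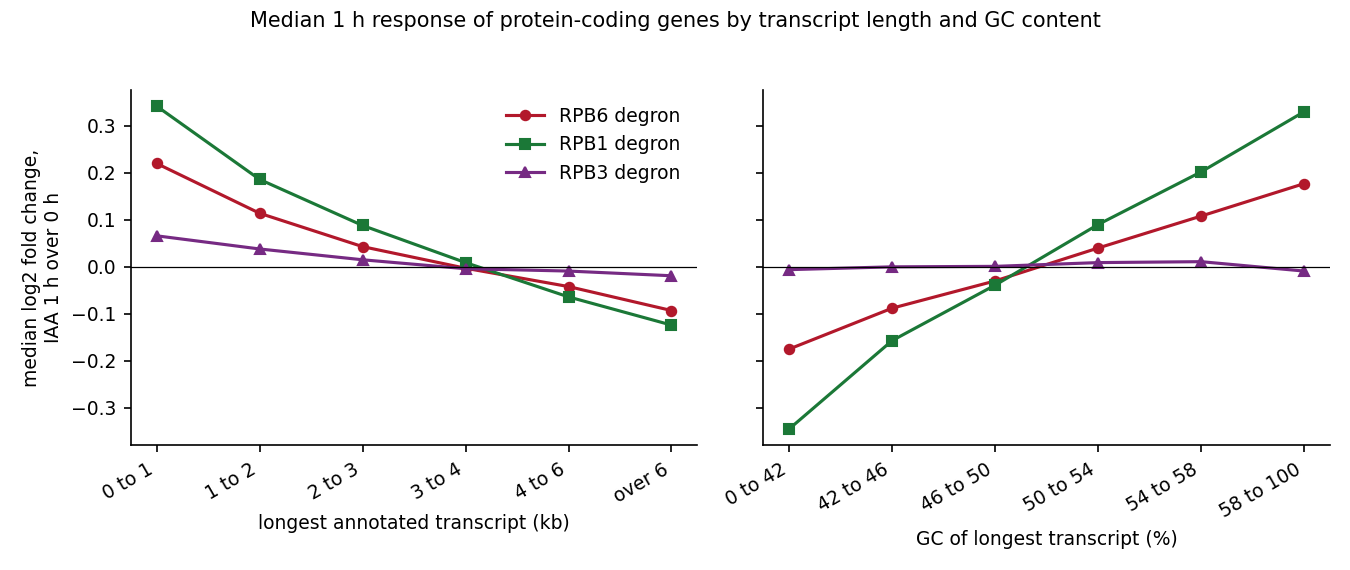
Median log2 fold change of 1 h over 0 h of protein-coding genes by length (left) and GC content (right) of the longest annotated transcript in RPB6 (circles), RPB1 (squares) and RPB3 (triangles) cells. In RPB6 cells the medians ran from 0.220 for the shortest to -0.093 for the longest transcripts and from -0.175 for the lowest to 0.177 for the highest GC content, with a steeper slope in RPB1 cells and a flatter one in RPB3 cells.

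Of the 30 gene lists, 19 had no member called by edgeR at 1 h, many of them lists of cell identity and stress. With edgeR, 2710 of all 15658 genes tested had an unadjusted p under 0.05. These 19 lists were pooled because they lacked a call, so the absence of edgeR calls in the pool is no result. They held 305 tested genes, of which 82 had such a p. DESeq2 called 5 of the 305, beside 287 over all genes. The 19 lists were the naive pluripotency factors, the Myc and Max network, BMP, LIF and Wnt pathway genes, p53 targets, elongation and P-TEFb factors, SR proteins, snoRNA hosts, Pol I and Pol III subunits, the integrated stress response, mitochondrial mRNAs, histones, DNA replication, mitosis, 2-cell-like genes, the interferon pathway and the markers of fibroblasts and primitive endoderm. Nanog, a core factor of naive pluripotency, averaged 281 CPM at 1 h and 308 CPM at 0 h (log2 fold change -0.13, adjusted p = 0.409), and Pou5f1 averaged 703 CPM at 1 h and 601 CPM at 0 h (0.23, adjusted p = 0.170). The 26 pluripotency factors ran from -0.34 to 0.25 on the log2 scale. Nr0b1, a nuclear receptor of that network, had 103 and 105 CPM at 1 h, against 127 and 127 CPM at 0 h without overlap, and its log2 fold change of -0.28 did not pass the test (adjusted p = 0.0963). Fgf4, the FGF that stem cells secrete, had a log2 fold change of -0.24 (adjusted p = 0.0962). That these genes missed the threshold does not show that their levels were the same at 1 h and 0 h.

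The largest subunit RPB1, which holds the catalytic center of Pol II, was targeted for the same time in a line of its own. RPB1 cells had 3894 genes called at 1 h (24.9%), 1723 higher (11%) and 2171 lower (13.9%), and RPB3 cells, in which a subunit of the assembly platform was targeted, had 56 (0.358%), 1 higher (0.00639%) and 55 lower (0.351%). Of the 147 genes higher in RPB6 cells, 137 were also higher in RPB1 cells, which is 93.2% of these genes and 7.95% of RPB1's higher genes. Of the 94 lower genes, 86 were also lower in RPB1 cells, 91.5% of these and 3.96% of RPB1's. In RPB3 cells edgeR called none of the 147, with 3 positive and 9 negative at an unadjusted p under 0.05, and DESeq2 called 1 gene higher over the whole table. There, 16 of the 94 were lower, 17% of them and 29.1% of RPB3's lower genes, beside 0.351% of all genes. The replicates of RPB3 at 1 h stood apart from each other. Coding genes of transcripts under 1 kb held 3.39% and 4.13% of their counts, against 3.71% and 3.77% in RPB3 cells at 0 h. How many genes were called higher in RPB3 cells depended on which of these replicates was kept. With the RPB3 libraries out of the fit, 894 genes were called in RPB6 cells.

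The 16 genes lower in all 3 lines included Spry4, Spry2, Mir17hg, Nlrp12, Txnip, Eif4a2, Taf1d, Zfp280b, Zfp941, Plppr3 and Rps10. Spry4 had log2 fold changes of -1.37 in RPB6 cells, -1.78 in RPB1 cells and -1.43 in RPB3 cells. Its response in RPB6 cells was not found to differ from the others, with a difference of 0.41 ± 0.20 (SE; adjusted p = 0.592) from RPB1 cells and of 0.06 ± 0.18 (SE; adjusted p = 0.943) from RPB3 cells. Txnip, an inhibitor of thioredoxin that restrains glucose uptake, had 591 and 581 CPM at 1 h, against 741 and 799 CPM at 0 h in RPB6 cells, and its log2 fold change of -0.39 was smaller in size than the -1.52 of RPB1 cells by 1.12 ± 0.11 (SE; adjusted p = 1.42e-05). Mir17hg likewise had a difference of 0.93 ± 0.19 (SE; adjusted p = 0.0285) from RPB1 cells.

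The responses of RPB6 and RPB1 cells differed in 89 genes (0.568%), 79 with the higher value in RPB6 cells (0.505%) and 10 with the lower (0.0639%). Those of RPB6 and RPB3 cells differed in 32 genes (0.204%), 31 higher in RPB6 cells (0.198%) and 1 lower (0.00639%). Both sets of differences use the same RPB6 libraries. Snhg1, Gas5, Snhg5, Snhg12 and Zfas1, noncoding hosts of small nucleolar RNAs (snoRNAs), were among the genes with the higher response in RPB6 cells. SnoRNAs guide the modification of ribosomal RNA and are cut from the introns of such hosts, whose spliced transcripts are known as targets of nonsense-mediated decay. Snhg1 had 498 and 515 CPM at 1 h, against 501 and 475 CPM at 0 h in RPB6 cells. The same gene had 37.2 and 36.0 CPM at 1 h, against 110.0 and 98.5 CPM at 0 h in RPB1 cells. In RPB3 cells it had 38.9 and 48.6 CPM at 1 h, against 89.3 and 86.1 CPM at 0 h. The 1 h and 0 h libraries thus overlapped in RPB6 cells and lay apart in the other lines, and the responses differed by 1.56 ± 0.13 (SE; adjusted p = 2.38e-06) from RPB1 cells and by 1.05 ± 0.12 (SE; adjusted p = 0.000811) from RPB3 cells. Gas5 had 274 and 271 CPM at 1 h, against 249.8 and 210.0 CPM at 0 h in RPB6 cells, with differences of 1.37 ± 0.16 (SE; adjusted p = 0.000149) from RPB1 cells and 1.18 ± 0.16 (SE; adjusted p = 0.00250) from RPB3 cells. Zfas1 had 169 and 142 CPM at 1 h, against 117 and 109 CPM at 0 h in RPB6 cells, without overlap, and its log2 fold change of 0.46 there did not pass the test (adjusted p = 0.0611).

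The annotated class of such hosts, drawn up after the values were seen, was counted too. Of 30 noncoding genes tested that hold an annotated snoRNA on their own strand, RPB6 cells had 0 higher and 1 lower with a median of -0.062. RPB1 cells had 0 higher and 14 lower with a median of -0.758, and RPB3 cells had 0 higher and 11 lower with a median of -0.478. The response of RPB6 cells was higher in 11 of the 30 than that of RPB1 cells (36.7%, beside 0.505% of all genes) and in 7 than that of RPB3 cells (23.3%, beside 0.198%). The member called lower in RPB6 cells was AC121821.1, with 8.40 and 7.59 CPM at 1 h, against 12.6 and 12.2 CPM at 0 h. The levels at 0 h differed as well, with Snhg1 at a mean of 488 CPM in the RPB6 libraries, against 104 CPM in RPB1 cells and 87.7 CPM in RPB3 cells. The untreated RPB6 cells of the 12 h set had 100.4 CPM, and the part of the 0 h level in the difference of the responses was not tested. Exons of Snhg1, Gas5 and Zfas1 overlap annotated snoRNAs, so part of their counts may belong to either. Of protein-coding hosts, 5 of 218 had a response higher in RPB6 cells than in RPB1 cells (2.29%) and 2 one higher than in RPB3 cells (0.92%).

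**Figure D3:**
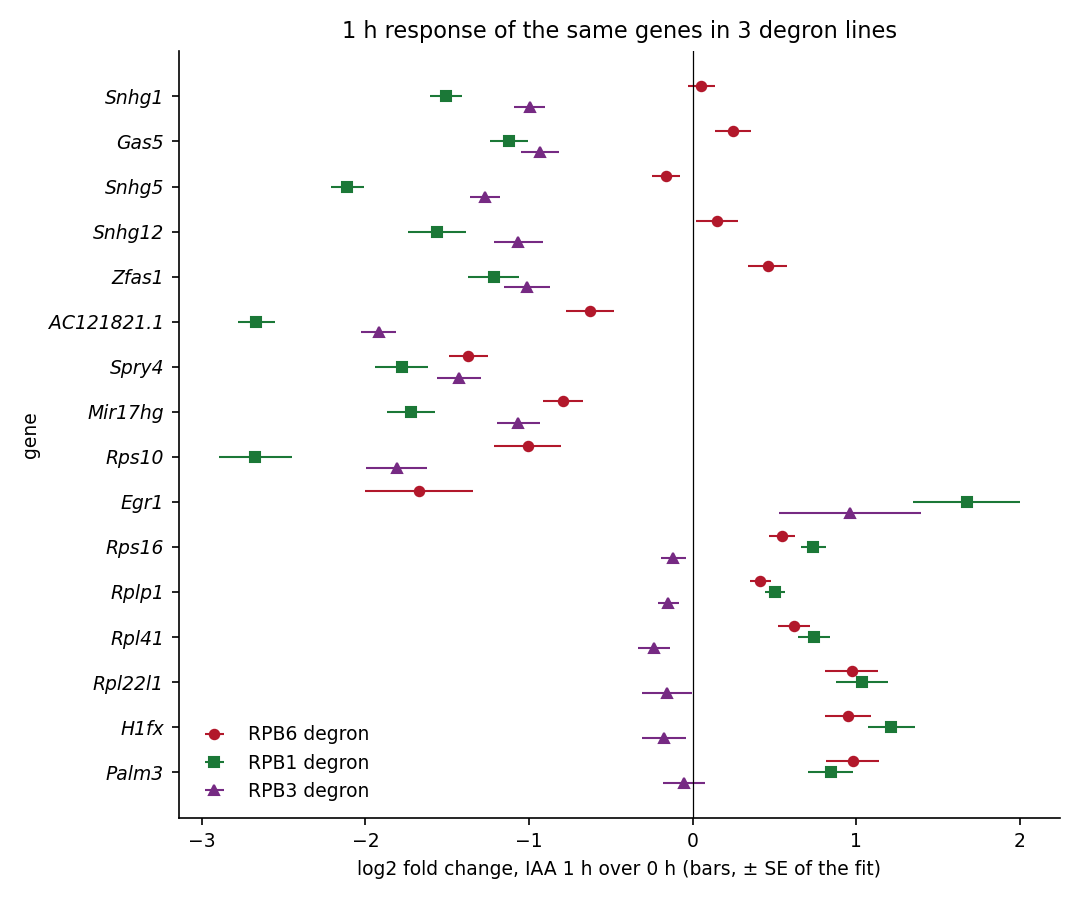
Log2 fold changes of 1 h over 0 h, with bars of ± 1 SE, of 16 genes in RPB6 (circles), RPB1 (squares) and RPB3 (triangles) degron cells. Snhg1, Gas5, Snhg5, Snhg12 and Zfas1 lie between -0.17 and 0.46 in RPB6 cells and at or below -0.93 in both other lines, Spry4 lies below -1.3 in all 3, and Rps16, Rplp1 and Rpl41 are above 0 in RPB6 and RPB1 cells and below 0 in RPB3 cells.

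Egr1 moved in opposite directions in RPB6 and RPB1 cells. It was lower in RPB6 cells, and in RPB1 cells it had 6.99 and 5.93 CPM at 1 h, against 1.91 and 2.14 CPM at 0 h, a log2 fold change of 1.67 ± 0.32 (SE; adjusted p = 0.00136). The difference between these responses was -3.35 ± 0.46 (SE; adjusted p = 0.00085), and that from RPB3 cells was -2.64 with an adjusted p of 0.0563, which missed the threshold. At 0 h the RPB6 libraries held more Egr1 than those of the other lines, and at 1 h the RPB1 libraries held the most. Fos gave a difference of -2.34 ± 0.39 (SE; adjusted p = 0.00557) from RPB1 cells, where it had a log2 fold change of 1.89.

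Several of the higher genes responded differently in RPB3 cells. Rps16 differed by 0.66 ± 0.11 (SE; adjusted p = 0.0161) from RPB3 cells, Rplp1 by 0.56 ± 0.09 (SE; adjusted p = 0.0125) and Rpl41 by 0.86 ± 0.14 (SE; adjusted p = 0.0125). H1fx, Rpl22l1 and Palm3 differed from RPB3 cells by 1.12, 1.13 and 1.03 on the log2 scale. For none of these 6 did the response differ from that of RPB1 cells past the threshold (adjusted p of 0.661 for Rps16 and 0.764 for H1fx). The count of 32 differences from RPB3 cells was 5 without replicate 1 of RPB6 at 1 h, 57 without replicate 2 and 0 under the mitochondrial scaling. Differences from RPB3 cells were not tested with an RPB3 library left out. Rps16 had 637 and 571 CPM at 1 h, against 417 and 412 CPM at 0 h in RPB6 cells, and its 0 h level in RPB3 cells was 625 CPM on average.

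**Figure D4:**
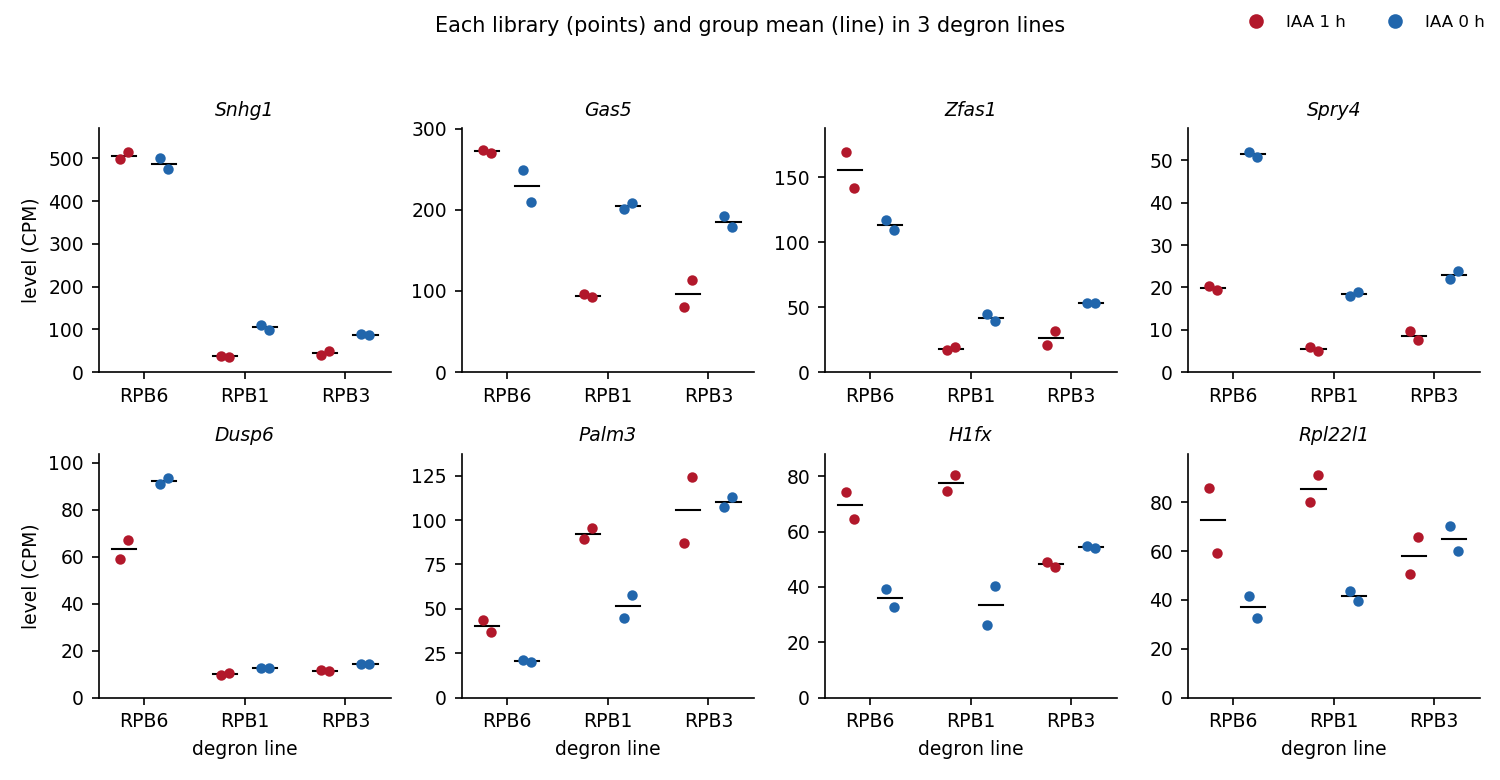
Levels (CPM, each axis from 0) of 8 genes in RPB6, RPB1 and RPB3 degron cells at 1 h (red) and 0 h (blue), with a point per library and a line at each mean of 2. Snhg1 lies at 475 to 515 CPM in the 4 RPB6 libraries and falls in the other lines, Spry4 falls in all 3, Dusp6 is highest in the RPB6 libraries, and H1fx at 1 h in RPB6 cells, at 74.2 and 64.6 CPM, lies above its 0 h points in every line.

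At 12 h of IAA, in a set of libraries with untreated cells of its own, RPB6 cells had 10875 of 17928 genes called (60.7%), 4890 higher (27.3%) and 5985 lower (33.4%). Of the 147 genes higher at 1 h, 145 were tested there, of which 117 were higher and 12 lower, with a median of 1.25. Of the 94 lower at 1 h, 92 were tested, of which 71 were lower and 10 higher, with a median of -1.76. Spry4 had 2.32 and 1.35 CPM at 12 h, against 12.2 and 10.98 CPM untreated, a log2 fold change of -2.64. Mir17hg had 3.97 and 2.02 CPM at 12 h, against 32.1 and 23.3 CPM untreated, a log2 fold change of -3.19. Rps16 had 1554 and 1636 CPM at 12 h, against 589.7 and 577 CPM untreated, a log2 fold change of 1.45. These 3 kept at 12 h the direction they had at 1 h, while Egr1, with a log2 fold change of 0.16 (adjusted p = 0.867), did not pass the test. Has3 and Plppr3, lower at 1 h, were higher at 12 h, by 0.46 and 1.30. The count of higher genes at 12 h was 2663 under scaling to total counts and 37 under scaling to mitochondrial mRNAs, where the median of all genes was at -0.749 and -2.077 in place of -0.125, so directions at 12 h are relative to that median. No difference between the times was tested because the library sets differ.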

How the data were processed

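RNA was sequenced from mouse embryonic stem cells, with poly(A) libraries for the 12 h set per the labels. No source used here states the kind of library made for the shorter course. A single table deposited by the authors holds raw counts, whole numbers without normalization, of 55335 mouse Ensembl genes and 64 libraries. Per the submitters' processing notes, the tools named are cutadapt 1.18, STAR, Bowtie2, featureCounts, DESeq2, deepTools and SAMtools, with the builds mm10 and dm6. Their roles and the strand setting are not given in the sources. Overlapping and antisense genes therefore cannot be told apart. Counts on the fly genome of the added S2 cells are not analysed here, so the values are shares of mouse RNA and not amounts per cell. Another 4 columns match no sample and were not used. GENCODE release 21 for mouse (GRCm38, the mm10 build) named 55154 of the genes.

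The 12 libraries of RPB6, RPB1 and RPB3 degron cells at 1 h and 0 h were fitted together with 1 coefficient per group in edgeR 4.0.16 (R 4.3.3), so that the groups of 2 shared 1 estimate of the spread with 6 residual degrees of freedom. Genes were kept with filterByExpr, scaled with TMM and tested with the two-sided quasi-likelihood F-test, and called at a Benjamini-Hochberg adjusted p under 0.05 over the 15658 genes tested. All adjusted p-values in the text come from this test or, for 12 h, from the same fit of 52 libraries (17928 genes). Differences between lines were contrasts of the same fit. Counts of 8598431 to 13281252 reads per library set the precision.

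Length and GC content are those of the longest annotated transcript, 3′ UTRs come from GENCODE, and promoters and mature microRNAs from RefSeq (GRCm38.p6). Genes named were Polr2f, the 12 highest and 12 lowest called genes of at least 5 CPM without overlap between groups (predicted symbols left out), up to 4 called and 2 further members of each of 30 gene lists, and 3 genes per difference and direction. Other genes were named after their values were seen. The members, lists and tests were chosen with earlier results of these data known. The alternatives were other scalings, no filter, DESeq2 1.42.0, fewer libraries, a replicate block and, added after seeing the data, removal of length and GC trends and a fit without the RPB3 libraries. The scripts were tested on simulated data. Python 3.11.15, pandas 2.3.3, numpy 2.4.6 and matplotlib 3.10.9 were used.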

Additional observations from a re-analysis of the deposited data

Results flagged for a closer look

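The 1 h response, log2 fold change of 1 h over 0 h, was tested for a difference between lines with contrasts of edgeR's fit, and 89 genes differed between RPB6 and RPB1 cells and 32 between RPB6 and RPB3 cells at an adjusted p under 0.05. Differences are given as the RPB6 response minus that of the other line, with no explanation weighed. Both comparisons use the same 4 RPB6 libraries.

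Some noncoding hosts of snoRNAs had the higher response in RPB6 cells. Against RPB1 and RPB3 cells it differed by 1.56 and 1.05 for Snhg1, by 1.37 and 1.18 for Gas5, by 1.94 and 1.10 for Snhg5, by 1.71 and 1.21 for Snhg12 and by 1.67 and 1.47 for Zfas1. The same held for AC121821.1, at 2.04 and 1.29, and for 1810032O08Rik, at 1.54 and 1.22. Snhg6, at 0.88, Snhg15, at 1.93, and Snhg17, at 1.01, differed from RPB1 cells past the threshold. Snhg1, Gas5, Snhg5, Snhg12, Zfas1, Snhg15 and Snhg17 kept their calls against RPB1 cells under every alternative run for them.

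Of the 94 genes lower in RPB6 cells, 18 had a response that was higher in RPB6 than in RPB1 cells and 1 a response that was lower. Over all genes tested, these shares were 0.505% and 0.0639%. Of the 147 genes higher in RPB6 cells, 1 had the higher response in RPB6 cells and 1 the lower. Among the 18 were Mir17hg with a difference of 0.93, Dleu2 with 0.75, Zfp941 with 1.03, Rps10 with 1.67, Eif4a2 with 0.67, Txnip with 1.12 and Taf1d with 0.66. Kcnq1ot1, an imprinted antisense RNA, differed by 2.08, with 31.7 and 42.7 CPM at 1 h, against 39.7 and 32.5 CPM at 0 h in RPB6 cells. The same RNA had 8.29 and 9.65 CPM at 1 h, against 38.4 and 35.9 CPM at 0 h in RPB1 cells. Fgf4 differed by 0.59, Socs3, a feedback inhibitor of LIF signalling, by 0.70, and the predicted genes Gm38077 and Gm45854 by 2.49 and 2.09.

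Responses lower in RPB6 than in RPB1 cells were those of Egr1, at -3.35, and Fos, at -2.34. Hexim1, an inhibitor of P-TEFb, differed by -0.70, the phosphatase regulator Ppp1r10 by -0.62 and the predicted gene Gm26917 by -1.18. Against RPB3 cells the RPB6 response was higher for the ribosomal proteins Rps16, Rplp1 and Rpl41, by 0.66, 0.56 and 0.86, and for H1fx, Rpl22l1 and Palm3, by 1.12, 1.13 and 1.03. It was lower for Gm10925, by -1.29.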

How the results depend on the processing

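The count of 241 genes (147 higher, 94 lower) became 815 (494, 321) with no low-count filter, 488 (326, 162) with only the 4 RPB6 libraries, 894 (517, 377) without the RPB3 libraries, and 1 (0, 1) under scaling to mitochondrial mRNAs, which moved the median of all genes to 0.120. It ranged from 2 to 412 with 1 RPB6 library left out (1 to 269 higher, 1 to 143 lower), and 187 of the 241 were among the 412. It stayed within 1.5 times under RLE size factors (238), total counts (245), DESeq2 (287) and removal of length and GC trends (211). Same-numbered libraries were not seen to deviate together (correlations of -0.004 in RPB1, 0.055 in RPB3 and -0.006 in RPB6 cells). These correlations ran over all genes tested, those of few counts included, so they cannot exclude that the numbers pair the libraries. With the replicate block the counts were 688 (400, 288) for RPB6, 86 with 4 higher for RPB3, 122 for RPB6 minus RPB1 and 143 (129, 14) for RPB6 minus RPB3.

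RPB1 at 1 h had 1309 (537, 772) under mitochondrial scaling, 2195 (1105, 1090) with trends removed, 1437 lower by DESeq2, and 1389 to 2726 with 1 library left out (475 to 1234 higher, 912 to 1492 lower). RPB3 had 2 higher under total counts, 9 (0, 9) under mitochondrial scaling, 166 (24, 142) with no filter, 92 (3, 89) with trends removed, and 29 to 287 with 1 library left out (0 to 115 higher, 29 to 172 lower). RPB6 minus RPB1 had 43 (38, 5) under mitochondrial scaling, 173 (138, 35) with no filter, 6 lower by DESeq2, and 42 to 75 with 1 library left out (38 to 70 higher, 4 to 8 lower). RPB6 minus RPB3 had 15 (14 higher) under total counts, 0 (0, 0) under mitochondrial scaling, 262 (233, 29) with no filter, 66 (64, 2) by DESeq2, 55 (52, 3) with trends removed, and 5 to 57 with 1 library left out (5 to 54 higher, 0 to 3 lower). RPB6 at 12 h had 2663 higher under total counts (23.6% of calls) and 37 higher and 13958 lower under mitochondrial scaling (0.3% higher). For the differences between lines, only RPB6 libraries were left out, not those of RPB1 or RPB3. Where the counts given here moved, the cause was not tested.

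Over 104 results for single genes, 1258 values under another setting held 940 on the same side of the threshold, 303 that lost it, 8 that gained it and 7 that changed sign. Of 104 each, the losses were 76 under mitochondrial scaling, 65 without replicate 1 of 1 h, 62 without replicate 2 of 0 h, 57 without replicate 1 of 0 h, 17 without replicate 2 of 1 h and 15 with trends removed. Of the signs that changed, 1 belongs to Gm26917, which was called higher in RPB6 cells in the main fit. It stood at -0.105 with trends removed and was then not called. The others belong to values near 0 that were not called. They are Snhg17 at 0.110 under mitochondrial scaling and, with 1 RPB6 library left out, Snhg12 (-0.009 to 0.334), Snhg17 (-0.052 to 0.031, with 0.000 without replicate 2 of 1 h) and Kcnq1ot1 (-0.185 to 0.234). With 2 libraries a group, genes of few counts and changes under about the spread between replicates were not resolved.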

Other observations

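Xist, the long noncoding RNA of X inactivation, had 15.04 and 15.98 CPM at 1 h, against 23.7 and 20.8 CPM at 0 h in RPB6 cells (log2 fold change -0.53). Its exons share 1980 of 17946 bases with Tsix on the opposite strand, so reads of Xist and Tsix cannot be told apart. Npat, the activator of histone transcription, had a log2 fold change of -0.45 and Ccnl1, a cyclin of the spliceosome, one of -0.52, both called lower. With the length and GC trends of each library removed, Xist and Npat were not called. Nfe2l2, the regulator of the oxidative stress response, was called lower at -0.36. Nhp2 and Nop10, proteins of the H/ACA snoRNP, were called higher at 0.69 and 0.63. Hmga1, a chromatin protein with AT hooks, was called higher, with 579 and 433 CPM at 1 h, against 335 and 329 CPM at 0 h. These genes were named after their values were seen.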
